A study of Homo sapiens with 4 samples.

Results

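The comparison described here is the RNA response to MAOA knockdown in C4-2B ENZR, a human prostate carcinoma line that grows in the presence of enzalutamide, an antiandrogen drug. It takes 2 of the study's 4 libraries. In the control library the cells carried a lentiviral non-targeting hairpin, and in the knockdown library a lentiviral hairpin against MAOA. Both were selected with antibiotic as stable populations and kept in 20 µM enzalutamide with 10% fetal bovine serum, so neither the drug nor the hairpin vector differs between them. The other 2 libraries are an MAOA knockdown and a control hairpin in LNCaP, a related androgen-responsive line, grown without enzalutamide. Per the labels the hairpin lies in the coding region of MAOA. The sequence is not given, and 1 knockdown library of this line was analysed, so an effect of MAOA and an effect particular to a hairpin or to a selected population cannot be told apart. The question put to the data is how the transcriptome of resistant cells differs when MAOA is lowered.

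MAOA encodes monoamine oxidase A, an enzyme of the outer mitochondrial membrane that removes amine groups from serotonin, noradrenaline and dopamine and releases hydrogen peroxide. It is known in prostate carcinoma for its high level in aggressive disease. Several of the genes described below belong to the amino acid response, the uncharged tRNA arm of the integrated stress response. That name is used below as a label for gene lists, and the trigger was not measured. In the integrated stress response, kinases that sense uncharged tRNA, unfolded protein, haem shortage or double-stranded RNA phosphorylate the initiation factor eIF2. General translation is then reduced while the transcription factor ATF4 is translated, and ATF4 activates genes for amino acid uptake, amino acid synthesis and tRNA charging, as well as brakes on growth.

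Genes with a mean of at least 1 CPM (a library-size-adjusted level, as deposited) over both libraries were kept, which left 13810 of 25343. The difference is the log2 ratio of knockdown to control after adding 1 CPM to each. There was 1 library per group, so no difference has a replicate check and no test was made. The intervals given are exact 95% intervals of the ratio of reads. They cover counting error only and leave out the added 1 CPM, so that for genes of low level the interval lies farther from 0 than the ratio. The control held 23479051 reads and the knockdown 23679869, and a gene at 0 reads could still lie at up to 3 reads, or 0.121 and 0.122 CPM. All 14 luminal prostate markers were measured, with a summed level of 4257 CPM in the control and 4156 CPM in the knockdown. No basal marker reached a mean of 1 CPM, and their sums were 0.121 and 0.163 CPM. COL1A2, COL3A1 and POSTN (stroma), CD3E and CD79A (immune cells) and NEUROD1 (neuroendocrine cells) were at 0 in both libraries. COL1A1 made up most of the stromal sums of 49.8 and 59.4 CPM. The immune sums were 15.2 and 16.1 CPM, and the endothelial sums 5.26 and 3.66 CPM. Neuroendocrine sums were 93.1 and 77.2 CPM, most of it from ENO2 (87.1 and 72.0 CPM).

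MAOA was at 327 CPM in the control (8097 reads) and at 219 CPM in the knockdown (5375 reads). The knockdown library thus kept 66.8% of the control level, with a log2 ratio of -0.58 (interval -0.63 to -0.53). MAOA itself fell just short of the 1.5-fold line used below (0.585 in size) and is not counted as 1.5-fold lower. In LNCaP the ratio was -1.67. MAOB, the other monoamine oxidase, had 1 read in the control and 0 in the knockdown. Among 11 measured genes of monoamine metabolism, DDC was 1.5-fold higher (1.59% of all genes were). DDC, which makes dopamine and serotonin from their amino acid precursors, stood at 22.7 and 38.9 CPM (ratio 0.75). SLC22A3, a transporter that takes up monoamines, stood at 110 and 148 CPM (0.43). ADRA2A, an inhibitory adrenergic receptor, was at 10.4 CPM in the control and 22.9 CPM in the knockdown (ratio 1.06). PDE2A and PDE4D, which degrade cyclic nucleotides, stood at 0.566 and 2.97 CPM and at 15.2 and 26.1 CPM. These 3 are the members past 1.5-fold among 13 measured adrenergic receptor and cAMP genes, beside 1.59% of all genes that were 1.5-fold higher. The median ratio of the 13 was 0.10, and 0.03 at a mean of at least 5 CPM. PDE2A reached a mean of 1 CPM through the knockdown library alone.

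Most of the transcriptome lay close to equality. The median ratio was 0.00, and the quartiles were -0.12 and 0.14. A 2-fold difference was reached by 40 genes in the higher direction (0.29% of genes) and by 21 in the lower (0.152%). At 1.5-fold the counts were 219 higher (1.59%) and 133 lower (0.963%). Above 0 lay 6963 genes (50.4%) and below 0 lay 6847 (49.6%). All these shares are the background for the gene groups above and below. Genes of low level depend on the added value: with 5 CPM in place of 1 CPM, 23 of 88 named genes past 1.5-fold fell short of it. The counting interval left out 0 for all 61 genes past 2-fold and for all 352 past 1.5-fold, but also for 5971 genes (43.2%), which shows how small a difference the depth resolves between these 2 libraries without regard to variation between cultures. Medians by chromosome ran from -0.03 on chromosome 21 to 0.03 on chromosome 18. Medians by transcript length ran from -0.00 to 0.02. Differences along position and length were thus small beside those of the genes named below.

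**Figure D1:**
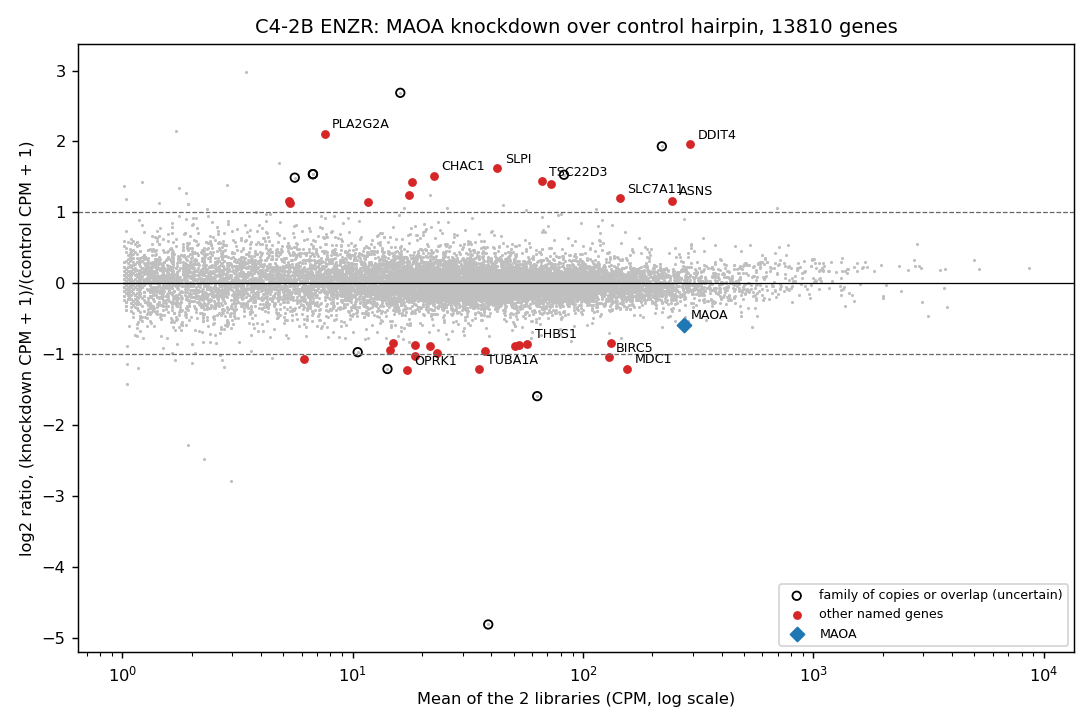
Each grey point is a gene with a mean of at least 1 CPM, with the mean of both libraries on the x axis (CPM, log scale) and the log2 ratio of knockdown to control on the y axis; dashed lines mark 2-fold, open circles genes with near-identical copies or an overlap (not TUBA1A), red points other named genes of the 20 highest and 20 lowest, and the diamond MAOA. The cloud is centred on 0, with DDIT4 (1.96) and ASNS (1.17) above it and BIRC5 (-1.04) and MDC1 (-1.20) below it among genes of more than 100 CPM.

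Among genes with a mean of at least 5 CPM, PLA2G2A had one of the highest ratios. It encodes a secreted phospholipase A2 and stood at 2.22 CPM in the control and 12.9 CPM in the knockdown (55 and 317 reads, ratio 2.11). DDIT4, which encodes the mTORC1 inhibitor REDD1, stood at 119 and 465 CPM (1.96, interval 1.91 to 2.03). SLPI, a secreted inhibitor of leukocyte proteases, stood at 20.3 and 64.7 CPM (1.62). These genes differed by far more than counting error. TSC22D3, the glucocorticoid-induced leucine zipper gene, was at 35.2 CPM and 97.3 CPM (1.44). CAMK2N1, whose product blocks CaM kinase II, had 39.3 and 105 CPM (1.40). ABCB11, the bile salt export pump of liver, stood at 10.1 and 25.2 CPM (1.24), AGT, the precursor of angiotensin, at 2.87 and 7.69 CPM (1.17), and ENTPD3, a surface enzyme that cleaves extracellular nucleotides, at 2.95 and 7.69 CPM (1.14). CHAC1, GDF15, SLC7A11, ASNS and CTH, also among the 20 highest, are described with their pathway below.

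At the lower end, OPRK1, the kappa opioid receptor gene, stood at 24.4 CPM in the control and 9.92 CPM in the knockdown (ratio -1.22, interval -1.52 to -1.08). MDC1, the scaffold that binds phosphorylated H2AX beside DNA breaks, was at 217 and 93.8 CPM (-1.20, interval -1.28 to -1.14). BIRC5, which encodes survivin, was at 175 and 84.4 CPM (-1.04, interval -1.13 to -0.97). With 5363 and 2307 reads, MDC1 had one of the narrower counting intervals. DAPK1, a calmodulin-dependent death kinase, stood at 25.2 and 11.9 CPM (-1.02). MINPP1, an inositol polyphosphate phosphatase, stood at 31.0 and 15.3 CPM (-0.97). CHSY1, a chondroitin synthase, stood at 49.7 and 25.3 CPM (-0.95). ID2, an inhibitor of basic helix-loop-helix factors, was at 28.3 and 14.9 CPM (-0.88), and its relative ID1, which lies outside the 20 and was named after its value was seen, was at 113 and 64.1 CPM (-0.80). CBFB, the partner of the RUNX factors, was at 65.7 and 35.4 CPM (-0.87), and TLE1, a corepressor, at 24.3 and 12.9 CPM (-0.87). CLU, the secreted chaperone clusterin, stood at 68.2 and 37.0 CPM (-0.87), THBS1, the matrix protein thrombospondin 1, at 74.0 and 40.7 CPM (-0.85), and CDC42EP3, an effector of the GTPase CDC42, at 19.5 and 10.5 CPM (-0.83).

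Several of the extreme ratios belong to genes that share reads with a near-identical copy and are uncertain as single genes. SSX2 had the lowest ratio, -4.80 (75.7 and 1.75 CPM), while its copy SSX2B had 1.53 (42 and 123 CPM). Summed, the pair had a ratio of 0.09. EIF3CL stood at -1.59, but its sum with EIF3C at -0.09. SERF1A stood at -1.20, but its sum with SERF1B at -0.17. GTF2H2C stood at 1.49, but the sum of GTF2H2, GTF2H2B and GTF2H2C at -0.31. RPL21P28, a ribosomal pseudogene, stood at 1.93, but its sum with RPL21 at 0.27. For these 5 the summed ratios thus lay between -0.31 and 0.27, far from the ratios of the single genes. TUBA1A stood at -1.21 and shares 33.6% of its 50-base stretches with other genes, and the sum of TUBA1A, TUBA1B and TUBA1C stood at -0.21. NUDT4P1, the highest of all at 2.69, kept a ratio of 1.01 when summed with NUDT4. RSC1A1 lies within DDI2, and their sum stood at -0.99. LOC100132287 and LOC100132062 held identical values and count as 1 measurement (ratio 1.54). C7orf63 (-1.06) was not searched. For DDIT4 and ASNS, 36.4% and 40.6% of 50-base stretches recur in other genes. Of 329 genes past 1.5-fold that could be searched, 41 shared at least 50% of these stretches.

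The group with the largest share of higher genes was that of stress effectors known as ATF4 targets. Of its 16 measured members 10 were 1.5-fold higher (1.59% of all genes were), none was 1.5-fold lower, and all 16 lay above 0. The median ratio was 0.77. The members were chosen with earlier results of these data known, so the count describes them and is not independent support. CHAC1, an enzyme that breaks down glutathione, was at 11.2 CPM in the control and 34.0 CPM in the knockdown (ratio 1.52). GDF15, a secreted stress cytokine, was at 9.38 and 27 CPM (1.43). TXNIP, a thioredoxin-binding arrestin, was at 53.9 and 107 CPM (0.98). Each had at least a 2-fold difference in level before the added 1 CPM, except TXNIP, which was just under it. VEGFA, the vascular growth factor, stood at 84.2 and 158 CPM (0.90), VLDLR, a lipoprotein receptor, at 13.3 and 24.1 CPM (0.81), and SESN2, a leucine-binding inhibitor of mTORC1, at 29.8 and 50.0 CPM (0.72). The hormone genes FGF21 (0.243 and 1.83 CPM) and INHBE (1.29 and 3.42 CPM) were also higher, though FGF21 rests on 6 and 45 reads. FGF21 reached a mean of 1 CPM through the knockdown library alone, so its place among the 10 depends on the filter. With a mean of at least 5 CPM, 8 members of the group were 1.5-fold higher. At the lower end of the group, ERO1L, an oxidase of the endoplasmic reticulum, stood at 42.9 and 44.5 CPM (0.05).

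Among the regulators of the pathway, 4 of 16 were 1.5-fold higher and none was 1.5-fold lower, with a median of 0.31. ATF4 itself stood at 431 CPM in the control and 625 CPM in the knockdown (ratio 0.54), below the 1.5-fold line. NUPR1, a small chromatin cofactor, was at 96.2 and 171 CPM (0.82). TRIB3, a pseudokinase that restrains ATF4, was at 49.6 and 82.4 CPM (0.72). CEBPB and JDP2, basic leucine zipper factors, had ratios of 0.61 and 0.59, and JDP2 fell short of 1.5-fold at equal sums (0.57). DDIT3, which encodes CHOP, stood at 26.2 and 39.0 CPM (0.56) and ATF3 at 17.1 and 24.3 CPM (0.49). ATF5, a factor of the same family, was at 42.7 and 29.4 CPM (-0.52) and thus lay on the other side. The 4 kinases of eIF2 lay closer to 0. EIF2AK1 had a ratio of 0.20, EIF2AK2 -0.21, EIF2AK3 0.16 and EIF2AK4 -0.01. PPP1R15A, the inducible phosphatase subunit that reverses eIF2 phosphorylation, had 4.49 and 4.96 CPM (0.12). RNA levels do not show whether eIF2 was phosphorylated.

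Amino acid uptake genes were split. Of 17 transporters 4 were 1.5-fold higher, none was 1.5-fold lower, and the median was 0.29. SLC7A11, which exchanges glutamate for cystine, stood at 86.7 CPM in the control and 201 CPM in the knockdown (ratio 1.20, interval 1.14 to 1.29). SLC6A9, a glycine carrier, stood at 16.4 and 30.7 CPM (0.87). SLC7A5, the carrier of large neutral amino acids, stood at 260 and 406 CPM (0.64), and its partner SLC3A2 at 136 and 190 CPM (0.48). SLC1A4, a carrier of alanine, serine and cysteine, had a ratio of 0.62. SLC1A3, a glutamate carrier, stood apart at 15.7 and 10.7 CPM (-0.51). SLC38A9, the arginine sensor of the lysosome, was at 0.09. In amino acid and one-carbon synthesis, 3 of 20 genes were 1.5-fold higher, none was 1.5-fold lower, 15 lay above 0, and the median was 0.22. ASNS, asparagine synthetase, was at 149 and 336 CPM (1.17). CTH, which makes cysteine from cystathionine, was at 6.87 and 16.4 CPM (1.14). ALDH1L2, a mitochondrial folate enzyme, was at 22.4 and 43.2 CPM (0.92). The serine pathway genes were higher by less than 1.5-fold, with PHGDH at 0.29, PSAT1 at 0.55, PSPH at 0.29, SHMT2 at 0.30 and MTHFD2 at 0.52, while the cytosolic enzymes SHMT1 and MTHFD1 stood at -0.01 and -0.09. PCK2, the mitochondrial enzyme that makes phosphoenolpyruvate, is in no list and was named after its value was seen, with 73.9 and 154 CPM (1.05).

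Of 20 cytosolic synthetases 12 lay above 0 with a median of 0.21, and CARS, for cysteine, was 1.5-fold higher (73.5 and 112 CPM, 0.60, and 0.58 with the libraries rescaled to equal sums, short of 1.5-fold). CARS is also counted among the stress effectors past 1.5-fold. Of the other synthetases, GARS, SARS, MARS and AARS followed with ratios of 0.54, 0.42, 0.37 and 0.35. KARS, QARS, FARSA, HARS, FARSB, VARS, RARS and DARS lay below 0, at -0.18 to -0.04. Of 17 mitochondrial synthetases 6 lay above 0, none was 1.5-fold apart either way, and the median was -0.07. No test compared the compartments.

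**Figure D2:**
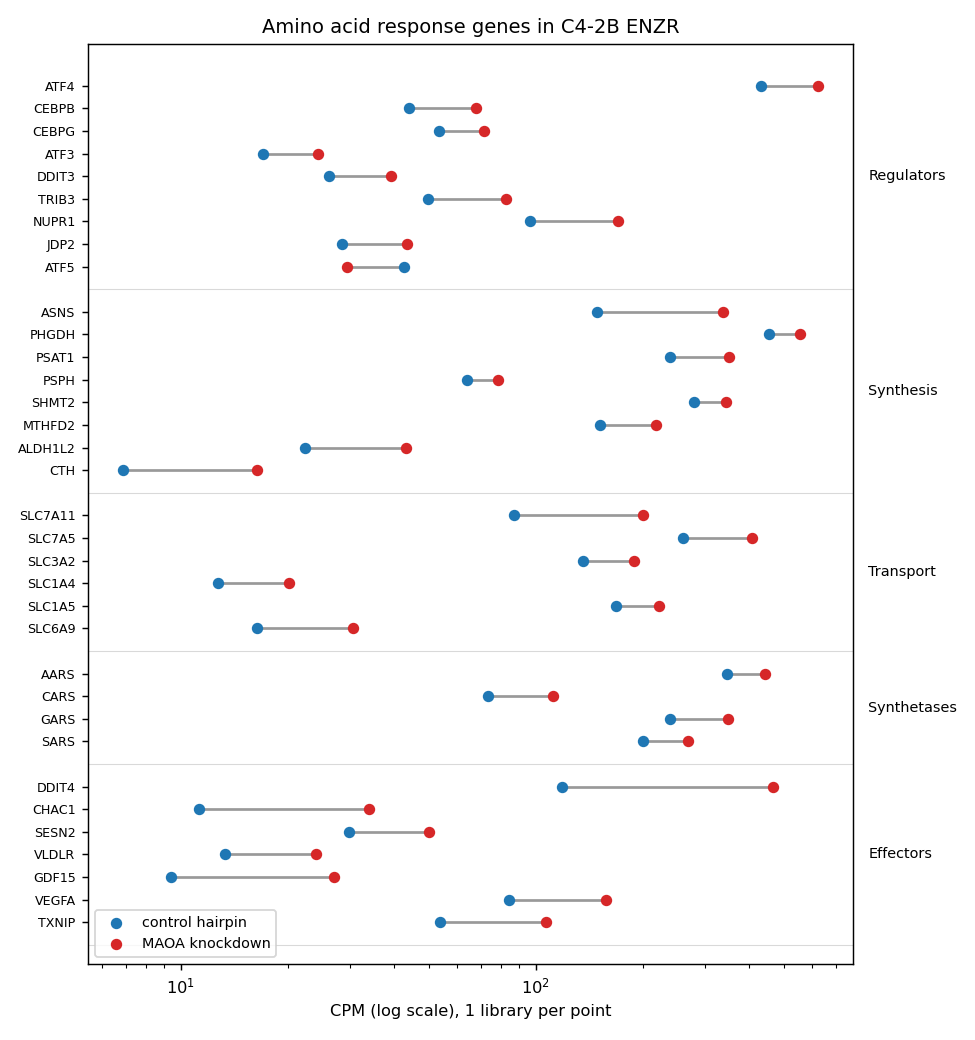
Levels (CPM, log scale) of amino acid response genes grouped by role, with the control library in blue and the knockdown library in red, 1 library per point and a bar joining both. In each gene shown except ATF5 the knockdown point lies to the right, with 119 and 465 CPM for DDIT4; only a selection of members is drawn, and FGF21, INHBE and SLC1A3 are among those left out.

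Promoters of these genes were read for the amino acid response element, searched as TGATGNAA on both strands in the bases from 250 before to 50 after the start site in the RefSeq table (build GRCh38.p14). It was present in 1003 of 27305 promoters (3.67%), of measured genes or not. Of the 69 promoters found for the 5 amino acid response lists together, 17 held it (24.6%). The lists hold genes already known in this pathway, so their shares describe the lists and not the response in these data. By role it was in 6 of 13 cytosolic synthetase promoters (46.2%), 4 of 13 stress effectors, 4 of 16 transporters, 3 of 14 synthesis genes and 2 of 15 regulators. The synthetase genes CARS and NARS are also in the stress effector list and are counted in both roles. The windows below are shown because CHAC1, FGF21 and ASNS were among the higher genes, while SLC1A3 holds the same letters and stood at -0.51. Each reads 5′ to 3′ along the gene's strand, with the match, or its reverse complement, in capitals. The positions are chr15:40953236-40953295 (+) for CHAC1, chr19:48755444-48755503 (+) for FGF21, chr7:97872443-97872502 (-) for ASNS and chr5:36596342-36596401 (+) for SLC1A3.
CHAC1: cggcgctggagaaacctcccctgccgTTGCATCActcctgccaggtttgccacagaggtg
FGF21: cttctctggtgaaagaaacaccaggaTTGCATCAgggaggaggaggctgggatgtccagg
ASNS: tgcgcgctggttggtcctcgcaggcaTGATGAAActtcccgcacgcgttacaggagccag
SLC1A3: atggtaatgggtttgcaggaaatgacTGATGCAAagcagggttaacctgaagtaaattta
The match starts 209 bases before the start site in CHAC1, 54 in FGF21, 68 in ASNS and 220 in SLC1A3. A match is a description of the letters and not a measured site. Over 10017 measured genes with a promoter under their symbol, the 161 that hold it had a median ratio of 0.05, against -0.00 for those without it.

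DDIT4 and SESN2 also belong to the regulators of mTORC1, the kinase complex that couples growth to nutrients. Of 28 measured regulators 3 were 1.5-fold higher, DDIT4, SESN2 and the GTPase gene RRAGD (13.2 and 21.7 CPM, 0.68), and the list's median was 0.06. EIF4EBP1, which blocks cap-dependent translation, stood at 72.6 and 107 CPM (0.55). MTOR and RPTOR, the core of the complex, had ratios of -0.02 and 0.01. DEPTOR, another inhibitor, stood at 22.4 and 17.3 CPM (-0.35), so the inhibitors did not share a direction. Among 16 FOXO factors and targets 13 lay above 0, with a median of 0.16. The 2 past 1.5-fold were CCNG2, an atypical cyclin of resting cells (29.7 and 50.5 CPM, 0.74), and PIK3IP1, an inhibitor of PI3 kinase (8.21 and 13.3 CPM, 0.63). SESN3 stood at 207 and 293 CPM (0.50). IRS2 and IGF1R, which carry insulin and growth factor signals, stood at -0.02 and 0.09.

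BTG2, which slows proliferation, stood at 45.0 and 87.0 CPM (0.94). CDKN1A, which encodes the kinase inhibitor p21, was at 92.7 and 143 CPM (0.62). Among 19 BCL2 family and apoptosis inhibitor genes, BIRC3 was 1.5-fold higher (5.26 and 8.5 CPM, 0.60) and BIRC5 was lower. The survival gene MCL1 stood at 251 and 209 CPM (-0.27), and BBC3, which encodes PUMA, at 3.24 and 5.16 CPM (0.54). Both the pro-death and pro-survival sides held members above and below 0, and the median was -0.03.

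Genes of DNA replication and mitosis lay below 0 in large majority but by small amounts. In replication 40 of 45 members lay below 0 (49.6% of all genes did), the median was -0.15, and 1 was 1.5-fold lower. For 30 of the 45 the counting interval lay wholly below 0, and for none wholly above. Over all 13810 genes it lay wholly below 0 for 2996 and wholly above for 2975. The gene past 1.5-fold was PCNA, the sliding clamp of the replication fork. It had 183 CPM in the control and 108 CPM in the knockdown (-0.76, interval -0.84 to -0.70). UHRF1, which guides maintenance methylation, stood at 96.3 and 70.2 CPM (-0.45). RRM2, a subunit of ribonucleotide reductase, stood at 192 and 141 CPM (-0.44), and TYMS, thymidylate synthase, at 150 and 115 CPM (-0.37). MCM7, a subunit of the replicative helicase, stood at 395 and 328 CPM (-0.27). The polymerase genes POLD1, POLD2 and POLE had ratios of 0.08, 0.05 and 0.03 and lay with the few above 0.

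In mitosis 36 of 41 members lay below 0, with a median of -0.15, and ANLN, the cytokinetic ring scaffold anillin, was 1.5-fold lower (170 and 94.6 CPM, -0.83). CDC20, the activator of the anaphase-promoting complex, stood at 235 and 176 CPM (-0.42). PLK1, a mitotic kinase, stood at 180 and 140 CPM (-0.36), and CCNB1, cyclin B1, at 194 and 154 CPM (-0.33). MKI67, the proliferation antigen, stood at 346 and 309 CPM (-0.16). All 4 genes of the chromosomal passenger complex lay below 0. BIRC5 was at -1.04, and its partners CDCA8, AURKB and INCENP were at -0.28, -0.23 and -0.12, so the member past 1.5-fold stood apart from the rest of the complex. Likewise MDC1, at -1.20, stood apart from the other genes of double-strand break signalling. The median over the 24 measured, MDC1 included, was -0.11. The sensor NBN had a ratio of -0.18, the kinases ATM and ATR -0.04 and 0.05, and TP53BP1 0.03. Of 25 G1 regulators only CDKN1A was past 1.5-fold. CCNE2, an S phase cyclin, stood at 59.1 and 40.2 CPM (-0.55) and MYC at 248 and 321 CPM (0.37). In bulk RNA fewer dividing cells and less of these transcripts per cell cannot be told apart.

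The E2F-type element, searched as TTTGGCGC or TTTCCCGC on both strands in the same windows, was in 631 of 27305 promoters (2.31%). It was in 16 of 39 replication promoters (41%), 2 of 36 mitosis promoters (5.56%) and 0 of the 69 of the amino acid response. TGATGNAA was in 0 of the 39 and 1 of the 36. These shares likewise describe the lists and not the response in these data. The 3 replication genes with the lowest ratios among those that hold the element are shown, with it in capitals. They lie at chr20:5126648-5126707 (-) for PCNA, chr19:4909461-4909500 (+) for UHRF1 and chr18:657588-657647 (+) for TYMS, in GRCh38.p14.
PCNA: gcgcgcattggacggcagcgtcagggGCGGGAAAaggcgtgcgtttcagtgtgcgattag
UHRF1: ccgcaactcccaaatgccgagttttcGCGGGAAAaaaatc
TYMS: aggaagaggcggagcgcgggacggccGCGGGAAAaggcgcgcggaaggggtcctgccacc
In all 3 the match is on the opposite strand, and it starts 59, 14 and 39 bases before the start site.

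Replication-dependent histone genes were low in both libraries, with 19 of 73 reaching a mean of 1 CPM. Of these 18 lay below 0, and the median was -0.31. It was -0.12 with 5 CPM added and -0.036 with no filter on low values. HIST1H2AC, at 4.37 and 2.03 CPM (-0.82), and HIST2H2BE, at 20.1 and 12.3 CPM (-0.66), were 1.5-fold lower. HIST1H2BK stood at 42.9 and 29.6 CPM (-0.52). Some histone genes are near-identical in sequence, and HIST2H2AA3 and HIST2H2AA4 held the same values, so such members are uncertain as single genes. HIST1H2AC and HIST2H2BE shared 0.42% and 8.11% of their 50-base stretches with other genes. Tubulins lay below 0 in 11 of 12, with a median of -0.25, and TUBB4B stood at 552 and 418 CPM (-0.40). TUBB3, a beta tubulin of neurons and carcinomas, was 1.5-fold lower (8.61 and 5.33 CPM, -0.60). It shared 33.4% of its 50-base stretches with other genes, so it is uncertain as a single gene.

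**Figure D3:**
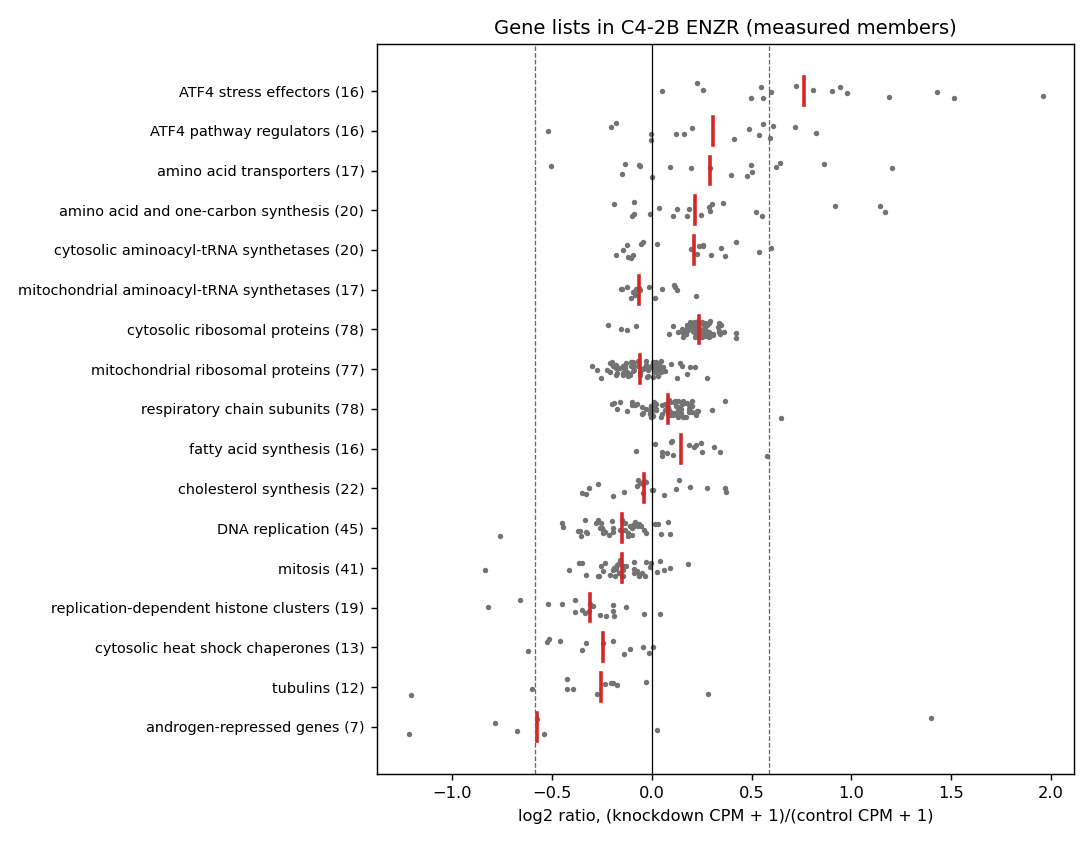
Grey points are the log2 ratios of the measured members of 17 gene lists (number of members in brackets), red bars the list medians, and dashed lines 1.5-fold either way. Stress effectors have the highest median (0.77) and androgen-repressed genes the lowest (-0.57), while ribosomal proteins form a tight group around 0.23.

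Cytosolic ribosomal protein genes were higher together by a small amount. Of 78 members 74 lay above 0 (50.4% of all genes did), the median was 0.23, and none was 1.5-fold apart either way. Ratios ran from -0.22 for RPL21 to 0.42 for RPS21. RPL21 shares reads with RPL21P28, and their sum stood at 0.27. The large subunit (47 genes) had a median of 0.23 and the small subunit (31 genes) of 0.25, so both subunits were alike. RPS2, the most abundant by CPM, stood at 3308 and 3771 CPM (0.19). These genes have many processed pseudogenes that share their reads, so each is uncertain, and their summed level was 63191 CPM in the control and 74321 CPM in the knockdown. The 77 mitochondrial ribosomal protein genes did not follow, with 28 above 0, none 1.5-fold apart and a median of -0.06. Respiratory chain subunits lay above 0 in 57 of 78, with a median of 0.08, and COX7C, a small subunit of complex IV, was 1.5-fold higher (137 and 214 CPM, 0.65). Complex IV had 11 of 12 members above 0 and complex I 26 of 37. GAS5, a host transcript of small nucleolar RNAs that accumulates when growth stops, stood at 96.1 and 140 CPM (0.54), but the 12 such transcripts had a median of 0.12 and 5 of them lay below 0.

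Cytosolic heat shock chaperones were lower in 12 of 13 members, with a median of -0.25, and for 11 the counting interval lay wholly below 0. That held for 2996 of all 13810 genes. HSPA1B, an inducible HSP70, was at 658 CPM in the control and 428 CPM in the knockdown (-0.62). Its near-copy HSPA1A had 0 and 0.569 CPM, so the pair is uncertain as single genes. HSPA8, the constitutive HSP70, was at 3624 and 2629 CPM (-0.46), HSP90AA1, an HSP90, at 4226 and 3356 CPM (-0.33), and DNAJA1, an HSP70 co-chaperone, at 404 and 282 CPM (-0.52). HSF1, the heat shock factor, stood at 119 CPM in both (0.00). The 24 chaperones and degradation genes of the endoplasmic reticulum had a median of 0.05. HERPUD1, a degradation factor of that compartment, was 1.5-fold higher (67.2 and 106 CPM, 0.65), HSPA5, the chaperone BiP, stood at 0.08, and PDIA6, a disulfide isomerase, at 323 and 232 CPM (-0.48). The difference between these compartments was not tested.

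Metabolic and oxidative genes were mixed. Of 30 antioxidant and NRF2 genes SLC7A11 alone was past 1.5-fold, and the median was 0.04. FTH1, the heavy chain of the iron store ferritin, stood at 2274 and 3344 CPM (0.56). HMOX1, which degrades haem, stood at 19.3 and 28.5 CPM (0.54), while NQO1, a classical NRF2 target, stood at 170 and 188 CPM (0.14) and OSGIN1, another, at 16 and 10.8 CPM (-0.53). KEAP1, the inhibitor of NRF2, stood at 87.2 and 65.3 CPM (-0.41). Of 30 hypoxia and glycolysis genes VEGFA alone was past 1.5-fold, GAPDH stood at -0.06 and SLC2A1, the glucose carrier, at 0.01. PDK1, which restrains entry of pyruvate into mitochondria, stood at 39.5 and 58.4 CPM (0.55). Fatty acid synthesis lay above 0 in 15 of 16, with a median of 0.15 and SCD, a desaturase, at 545 and 691 CPM (0.34). Cholesterol synthesis had 9 of 22 above 0 and a median of -0.04, with INSIG1, a sterol-sensing brake on the pathway, at 114 and 147 CPM (0.37). No member of either lipid list was past 1.5-fold. Interferon response genes had a median of 0.01 over 22 members and autophagy genes 0.10 over 18, with none past 1.5-fold in either.

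Androgen-regulated genes were examined because the cells were held in an antiandrogen. The pioneer factors FOXA1 and HOXB13 stood at 428 and 395 CPM (-0.11) and at 337 and 302 CPM (-0.16). Of 6 measured kallikrein and secretory genes KLK3, which encodes prostate-specific antigen, was 1.5-fold higher, but at 3.72 and 6.34 CPM (92 and 156 reads, 0.64, interval 0.39 to 1.16). KLK2 stood at 17.4 and 24.4 CPM (0.47) and KLK4 at 81.8 and 98.1 CPM (0.26). Among 24 other androgen-induced genes 1 was 1.5-fold higher and 3 were lower, with a median of -0.04. The higher gene was PLA2G2A. The lower ones were ELL2, an elongation factor gene (17.8 and 10.1 CPM, -0.76), C1orf116 (161 and 98.8 CPM, -0.70) and PMEPA1, an inhibitor of TGF-beta signalling (33.5 and 20.6 CPM, -0.67). FKBP5 stood at -0.18 and TMPRSS2 at 0.40, so well-known androgen targets lay on both sides of 0.

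Of 7 measured androgen-repressed genes 1 was 1.5-fold higher and 3 were lower, with a median of -0.57 (-0.26 with 5 CPM added and -0.38 at a mean of at least 5 CPM). OPRK1 was described above. UGT2B15, which conjugates androgens with glucuronic acid, stood at 21.1 and 11.8 CPM (-0.79), UGT2B11 at 5.01 and 2.77 CPM (-0.68) and UGT2B17 at 3.15 and 1.79 CPM (-0.57). These enzymes are near-identical in sequence, and their low reads can be split between them. CAMK2N1 went the other way, and FOLH1, which encodes prostate-specific membrane antigen, stood at 994 and 1013 CPM (0.03). Among glucocorticoid receptor targets TSC22D3 was 1.5-fold higher and DUSP1, a phosphatase of MAP kinases, 1.5-fold lower (11.2 and 6.26 CPM, -0.75). NR3C1, the receptor itself, was at 0.283 and 0.529 CPM, FKBP5 is shared with the androgen list, and the median over 12 genes was 0.01.

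CLDN4, a claudin of tight junctions, was the one of 19 epithelial genes that was 1.5-fold higher (89.1 and 147 CPM, 0.71), and CDH1, E-cadherin, stood at 484 and 536 CPM (0.15). FN1, fibronectin, stood at 633 and 918 CPM (0.54) and VIM, vimentin, at 38.5 and 32.7 CPM (-0.23). Of 14 neuroendocrine genes 3 were measured, with ENO2 at 87.1 and 72.0 CPM (-0.27). GLI1, the target and effector of Hedgehog signalling, stood at 1.46 and 3.46 CPM (0.86), while its companion target PTCH1 stood at 22.9 and 21.1 CPM (-0.11). YAP1, the effector of the Hippo pathway, stood at 85.8 and 90.4 CPM (0.07), and AMOTL1, a YAP1 binder, was 1.5-fold higher at 0.89 and 1.99 CPM (0.66). RUNX2, a DNA-binding partner of CBFB, stood at 1.37 and 2.89 CPM (0.71), so CBFB and RUNX2 lay on opposite sides. CCL20, a chemokine and NF-kB target, stood at 2.55 and 5.29 CPM (0.83), and NFKBIA, the feedback inhibitor, at 59.7 and 62.1 CPM (0.06). S100A10, an annexin partner, stood at 31.6 and 19.0 CPM (-0.71) and S100A9, a myeloid calcium binder, at 0.809 and 1.87 CPM (0.67). Both AMOTL1 and S100A9 reached a mean of 1 CPM through the knockdown library alone, so their calls depend on the filter. With 5 CPM added their ratios were 0.25 and 0.24. PLA2G4D, the second phospholipase past 1.5-fold beside PLA2G2A, stood at 1.70 and 3.25 CPM (0.66).

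LNCaP gives a contrast of MAOA knockdown with control in cells without the drug, though the libraries were scaled in a separate table. Line, drug and lane-like library suffix go together, so that these cannot be told apart. Ratios were not tested between lines. In LNCaP 66.6% of genes lay above 0 and 33.4% below. There 4.98% were 1.5-fold higher and 1.57% lower, and 0.58% were 2-fold higher and 0.254% lower. With identical or overlapping entries taken once, 17 of the 19 highest genes of C4-2B ENZR had the same sign in LNCaP and 12 were past 1.5-fold there. Of the 19 lowest, 14 had the same sign and 7 were past 1.5-fold. These signs were not centred on the LNCaP median of 0.13 (genes with a mean of at least 10 CPM). Above 0 but below that median lay SSX2B (0.07), GTF2H2C (0.09) and SLC7A11 (0.09) of the highest. So did SSX2 (0.01) and CHSY1 (0.02) of the lowest. Genes with near-identical copies are kept in these counts. BIRC5 had ratios of -1.04 in C4-2B ENZR and -1.92 in LNCaP, MDC1 -1.20 and -1.57, CBFB -0.87 and -0.88, and ANLN -0.83 and -0.78. On the higher side DDIT4 had 1.96 and 0.99, CAMK2N1 1.40 and 1.93, GDF15 1.43 and 1.35, and CHAC1 1.52 and 0.86. SLC7A11 had 1.20 in C4-2B ENZR and 0.09 in LNCaP, ABCB11 1.24 and -0.16, and ALDH1L2 0.92 and -0.01. OPRK1 had -1.22 and 0.25, and CHSY1 -0.95 and 0.02. MAOA itself had -0.58 and -1.67, so the remaining MAOA level differs between the lines as well.

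**Figure D4:**
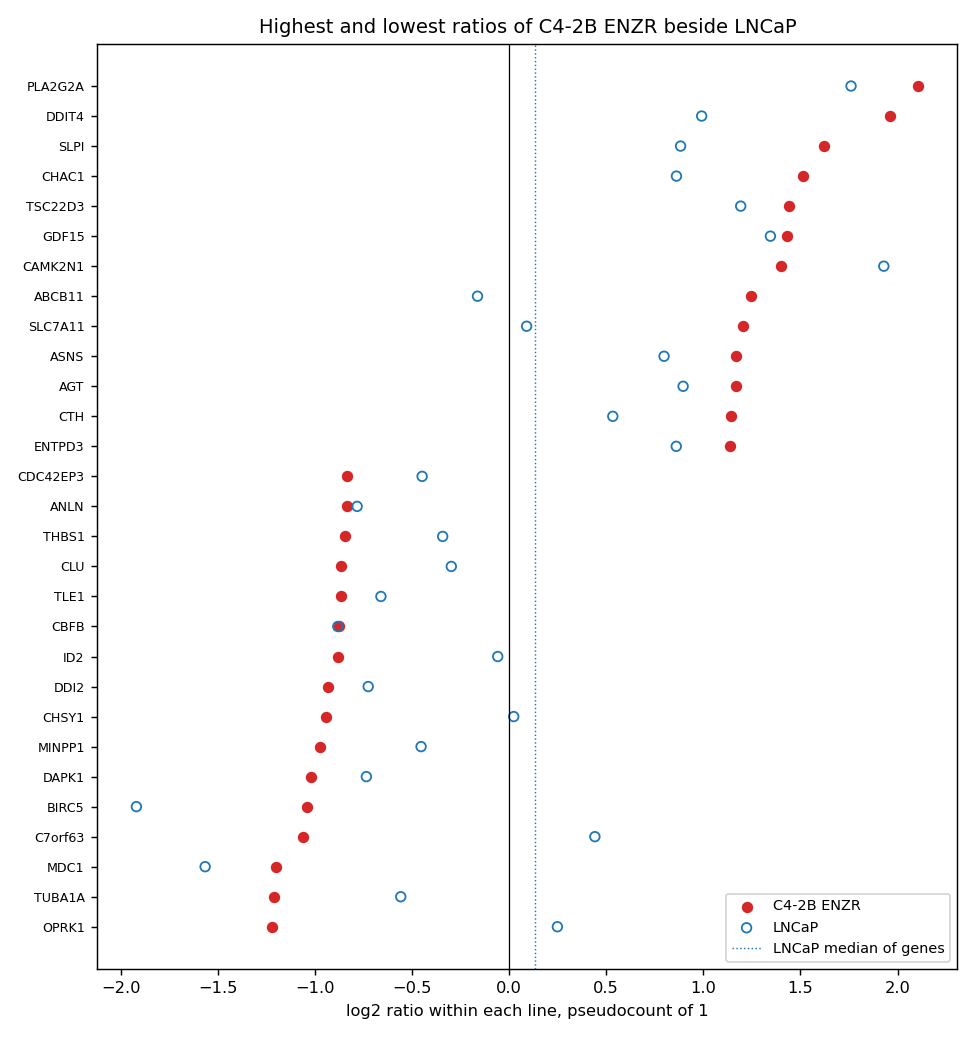
Log2 ratios of knockdown to control (x axis) for the highest and lowest genes of C4-2B ENZR, leaving out most genes with near-identical copies (TUBA1A is kept), with filled red points for C4-2B ENZR, open blue points for LNCaP and a dotted line at the LNCaP median of 0.13. The points lie on the same side of 0 for most genes, and on opposite sides for ABCB11, OPRK1, CHSY1 and C7orf63.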

How the data were processed

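RNA was sequenced from total RNA as single reads of 50 nt, with 1 library in each of 4 groups, per the labels' protocols. Bowtie2 2.1.0, RSEM 1.2.15, edgeR and the hg19 build are listed, per the submitters' processing notes. Annotation and filters are not stated in the labels. The authors deposited the C4-2B ENZR values as CPM with TMM scaling. For LNCaP the deposited unit was taken as a signal, because the knockdown column sums to more than CPM can. It was used only for ratios within its own table. All C4-2B ENZR values (100%) were whole multiples of 1 read within 0.01 read, so reads were recovered (23479051 and 23679869) and used for exact conditional (Clopper-Pearson) 95% intervals. A count model has no residual degrees of freedom with 1 library per group, so none was fitted and there are no calls. Nothing in the labels says which cultures the libraries came from, and the intervals say nothing on variation between cultures.

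Log2 ratios used an added 1 CPM and a mean of at least 1 CPM. Gene lists (54, with 1194 entries, of which 2 did not match a symbol) and members were chosen with earlier results of these data known. Genes named were the 20 highest and 20 lowest ratios at a mean of at least 5 CPM (11293 genes), list members past 1.5-fold, the extreme or most abundant members of lists, and members named for their role. The table holds 28 symbols turned into dates, which are counted but not named. Shared 50-base stretches were searched in GENCODE 29 transcripts, and promoters were taken from RefSeq GRCh38.p14 by symbol; the search for copies, the E2F-type motif and the length check were chosen after seeing the data. Other settings compared were pseudocounts of 0.1 and 5 CPM, no filter or a mean of at least 5 CPM, centring, and rescaling to equal sums. Python 3.11.15, numpy 2.4.6, pandas 2.3.3, scipy 1.17.1 and matplotlib 3.10.9 were used, and the interval was tested on simulated data. Some genes and lists that the rule covers are not reported here.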

Additional observations from a re-analysis of the deposited data

Results flagged for a closer look

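These values stand on opposite sides of 0 in the lines, and the difference between lines was not tested. DUSP1 had a ratio of -0.75 in C4-2B ENZR and 1.05 in LNCaP. HIST1H2AC had -0.82 and 0.94, and HIST2H2BE -0.66 and 1.20. For the replication-dependent histone genes the medians were -0.31 and 0.36. For the androgen-repressed genes they were -0.57 and 0.25. For the Hedgehog genes they were 0.16 and -0.014. The values printed here are not centred, and the LNCaP value of the Hedgehog genes is small. Each line was centred on its own median, 0.13 in LNCaP, before the signs were compared.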

How the results depend on the processing

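No paired analysis was possible because C4-2B ENZR has 1 library per group; a model over both lines would take the lines as replicates and was not run. With 1 library there is also no replicate to leave out. A pseudocount of 0.1 CPM gave 90 genes 2-fold higher and 45 lower, 396 and 258 at 1.5-fold, and a median of -0.83 for androgen-repressed genes. A pseudocount of 5 CPM gave 18 and 6 at 2-fold, 76 and 44 at 1.5-fold, medians of 0.55 for stress effectors and -0.26 for androgen-repressed genes, and 2 regulators of the ATF4 pathway past 1.5-fold. Without a filter the median was 0.0018 for monoamine metabolism, 0.00060 for phospholipases A2 and -0.023 for mesenchymal genes, which turned its direction. The same setting gave -0.036 for histones (-0.31 as reported), -0.047 for neuroendocrine genes (-0.27), -0.12 for RUNX factors (-0.36), 0.20 for kallikreins (0.32), 0.11 for NF-kB targets (0.23), 0.080 for the Hedgehog genes (0.16), 0.15 for CaM kinase II (0.24) and 0.00 for stromal markers (0.27). With 5 CPM added, 8 list medians shifted by over 1.5 times, among them histones (-0.12), neuroendocrine genes (-0.14) and RUNX factors (-0.18). With a mean of at least 5 CPM there were 26 and 9 genes at 2-fold, 129 and 76 at 1.5-fold, and a mesenchymal median of 0.36. Without genes that share at least 50% of their 50-base stretches, an alternative chosen after seeing the data, 12 genes were 2-fold lower (32 higher), and 199 and 112 were past 1.5-fold. Of 88 named genes past 1.5-fold, 23 fell short of it with 5 CPM added, with ratios of 0.24 to 0.57 in size: AMOTL1, BIRC3, CARS, CCL20, CEBPB, DUSP1, FGF21, GLI1, HIST1H2AC, HIST2H2BE, INHBE, JDP2, KLK3, LUM, PDE2A, PIK3IP1, PLA2G4D, RRAGD, RUNX2, S100A9, SLC1A4, TUBB3 and UGT2B11. A larger added value draws low levels toward 0 by construction. At equal sums CARS (0.58) and JDP2 (0.57) fell short, which left 9 stress effectors and 3 regulators past 1.5-fold, 211 genes were higher and 154 lower, and the medians of interferon (-0.011) and glucocorticoid (-0.013) genes lay below 0. Centring gave 233 and 127 genes at 1.5-fold, and no named gene fell short of it. Depth limits genes of few reads: 3 reads stand for 0.121 CPM in the control.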

Other observations

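Genes outside the lists were also apart. The values below were picked after they were seen. NEAT1, the nuclear RNA that builds paraspeckles, stood at 451 CPM in the control and 945 CPM in the knockdown (ratio 1.07). EGFR, the epidermal growth factor receptor gene, stood at 52.5 and 103 CPM (0.96). LMO4, a LIM-domain cofactor, had a ratio of 0.91 and JAG1, a Notch ligand, of -0.78.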
